A study of Mus musculus with 6 samples.

Results

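The major urinary protein genes Mup1, Mup2, Mup3, Mup4, Mup5, Mup6, Mup20 and Mup21 were examined in liver tumors against normal liver of mice. Their probes were those named for them on the array or through the current symbol of the probe's accession. Of the 55681 probes on the array, 9 were so named, for 7 of these 8 genes, with 2 probes each for Mup4 and Mup20 and 1 for each of the others. No probe carried the name of Mup1, but transcripts of Mup1 stood among those listed for the Mup2 probe, for 1 of 2 probes named Mup9 and for the Mup19 probe. A further 8 probes were named for other Mup genes, a Mup pseudogene or Mup contigs.

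Major urinary proteins (MUPs) are small secreted proteins of the lipocalin family. The liver of male mice makes them in large amounts, and they pass through the blood into the urine, where they carry volatile pheromones. Their genes and many pseudogenes lie side by side in a cluster on chromosome 4 and are so alike that an array probe made for a gene can also bind the transcripts of its neighbours. In hepatocytes their transcription is driven mainly by pulses of growth hormone, which act through the growth hormone receptor, the kinase Jak2 and the transcription factor Stat5b, and it is modulated by androgens, thyroid hormone and glucocorticoids.

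Total RNA came from 3 normal liver tissues and 3 liver tumors that carried a Ha-ras mutation, all from male C3H/HeN mice aged 74 to 75 weeks. Males of this strain are prone to liver tumors that arise without treatment. All mice were F2 offspring of the control group of a study of gestational arsenic exposure, so neither group was treated. Whether a normal and a tumor sample with the same number came from one mouse is not given. Each RNA was hybridised to its own array with 1 dye. An expression value here is the processed signal of a probe divided by the 75th percentile of all spots of that array, and values of different probes are not comparable with each other. By the file headers the 3 normal livers were scanned together and the 3 tumors at another time, and scan and group cannot be told apart on these arrays. Local background around the spots had a median of 42 to 45 on the normal arrays against 22 to 23 on the tumor arrays, and its part in the results was not tested. Correlations of log2 values were 0.989 to 0.992 between normal livers, 0.980 to 0.990 between tumors and 0.914 to 0.950 between the groups. No Mup spot held a saturated pixel, and the brightest mean signal of a member probe was 33.3% of the saturation value.

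The probes are 60 bases long, and pairs of them that share most of their bases show how far a signal can be tied to a gene. Of the 136 pairs among the 17 Mup probes, 7 matched at 80% or more of their aligned bases over at least 20 bases. The Mup3 and Mup6 probes and a contig probe (TC1781567) start at the same place of the coding sequence and are shown 5′ to 3′, with capitals at the 13 positions where the 3 do not all carry the same base.
Mup3: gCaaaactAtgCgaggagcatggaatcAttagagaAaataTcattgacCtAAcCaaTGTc
Mup6: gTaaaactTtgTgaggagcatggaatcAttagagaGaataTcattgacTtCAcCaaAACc
TC1781567: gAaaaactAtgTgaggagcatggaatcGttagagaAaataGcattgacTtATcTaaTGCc
The Mup3 and Mup6 probes shared 51 of 60 bases. The Mup6 probe is also listed in the array design for a Mup4 transcript, so its signal may come from more than Mup6.

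The Mup20 probe A_55_P2051486 and the probe of the pseudogene Mup-ps21 shared 54 of 60 bases, the closest match over a whole probe, with capitals at the 6 bases that differ.
Mup20: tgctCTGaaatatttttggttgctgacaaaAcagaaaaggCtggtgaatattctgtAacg
Mup-ps21: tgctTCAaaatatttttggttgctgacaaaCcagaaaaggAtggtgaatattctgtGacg
The Mup5 probe begins with the start codon and covers the signal peptide, which directs the protein to secretion. Its last 25 bases, in capitals, overlap the first 25 of the Mup4 probe A_55_P2007816, with 22 bases in common.
Mup5: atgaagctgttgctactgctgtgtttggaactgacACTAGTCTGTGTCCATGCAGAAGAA
Mup4: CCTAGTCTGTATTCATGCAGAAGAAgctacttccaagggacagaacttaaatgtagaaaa
The contig and the pseudogene were picked for this alignment after their values were seen.

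All 9 member probes had a lower mean in the liver tumors than in normal liver, and 3 passed the test. These were the probes of Mup6 and Mup21 and the Mup4 probe A_55_P2007816. Liver tumor 1 had the lowest value of the 6 arrays for each of the 9 probes, between 3.37 and 48.9 times below the lower of the other tumors. Most of the family did not pass with all 6 arrays, whereas 7 of the 9 probes were called lower when liver tumor 1 was left out. Liver tumor 1 was singled out by these same member values, and fits without it rest on liver tumors 2 and 3 alone. Leaving out the lowest array narrows the spread of the tumors, so adjusted p-values from those fits are no separate support. Signals are from whole tissue, so fewer hepatocytes and less Mup RNA per hepatocyte cannot be told apart.

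**Figure D1:**
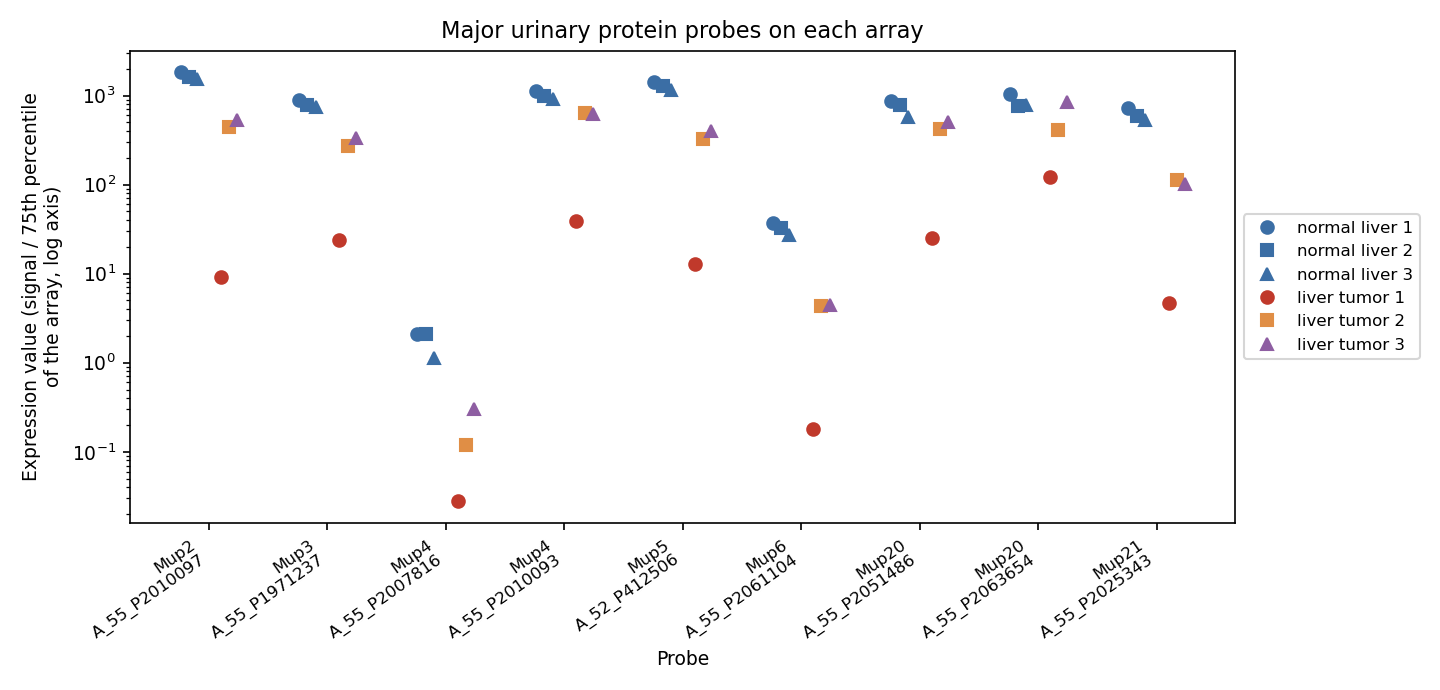
Expression value (log axis) of each of the 9 member probes on each of the 6 arrays, with normal livers in blue and a colour for each tumor. For 8 of the 9 probes all tumor points lie below all normal points, and the point of liver tumor 1 is the lowest in every column.

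Mup2, an abundant liver member, gave expression values of 1827, 1625 and 1542.5 in the normal livers. The tumors gave 9.05, 442 and 524. Every tumor lay below every normal liver, and the tumors were spread far more widely than the normal livers, with liver tumor 1 lowest. The log2 fold change was -3.70 (SE 1.50, n = 3 and 3, adjusted p = 0.104), which did not pass. Without liver tumor 1 it was -1.79 (SE 0.15, adjusted p = 0.00139), a 3.45-fold lower value.

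Mup3 read 881, 788 and 747 in the normal livers. The tumors read 23.9, 273 and 333, again without overlap. The log2 fold change was -2.63 (SE 0.96, adjusted p = 0.0786). Leaving out liver tumor 1 brought it to -1.41 (SE 0.15, adjusted p = 0.00284).

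The 2 probes of Mup4, a member first described in nasal and lachrymal tissue, differed in size of change. Probe A_55_P2007816 gave 2.11, 2.09 and 1.12 in the normal livers. It gave 0.0278, 0.12 and 0.30 in the tumors and was well above background in only 1 of the 3. It fell by 4.09 on the log2 scale (SE 0.82, adjusted p = 0.0124), and the log2 fold change was -3.17 without liver tumor 1 (adjusted p = 0.00719). With normexp background correction, which bears most on dim signals, the log2 fold change was -2.01 (adjusted p = 0.000494). It was the member probe that stayed called with each array left out in turn. Probe A_55_P2010093 read 1130, 994 and 919 in the normal livers and 39.4, 632 and 618 in the tumors. Its groups were apart, its log2 fold change was -2.02 (SE 1.05, adjusted p = 0.183), and without liver tumor 1 it was -0.69 (SE 0.14, adjusted p = 0.0195).

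The Mup5 probe gave 1428, 1283 and 1161 in the normal livers. The tumors gave 12.9, 324 and 401, all lower than any normal liver. The log2 fold change was -3.44 (SE 1.26, adjusted p = 0.0794), and -1.83 (SE 0.16, adjusted p = 0.00165) without liver tumor 1.

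Mup6 had the largest log2 fold change of the members with all arrays and the processed signal. It read 37.2, 32.1 and 27.4 in the normal livers. The tumors read 0.18, 4.33 and 4.48, all well above background. Mup6 fell by 4.40 on the log2 scale (SE 1.21, adjusted p = 0.0342), a 21.1-fold lower value. Without liver tumor 1 the fold was 7.26 (log2 -2.86, SE 0.16, adjusted p = 0.000562). In that fit the Mup4 probe A_55_P2007816 had the larger fall (log2 -3.17). With normexp Mup21 fell more than Mup6 (log2 -3.87 against -3.70). By the ratio of tumor mean to normal mean the same Mup4 probe was lower than Mup6 too (0.0842 against 0.0930). Mup6 kept the largest log2 fold change in the other alternative fits. Leaving out any 1 of the normal livers ended the call, with adjusted p from 0.0804 to 0.0929 and a log2 fold change from -4.51 to -4.29.

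Mup21 gave 729, 584 and 536 in the normal livers. The tumors gave 4.70, 113 and 101, without overlap. It fell by 4.02 on the log2 scale (SE 1.18, adjusted p = 0.0420), a 16.2-fold lower value that became 5.72-fold (log2 -2.52, SE 0.17, adjusted p = 0.000891) without liver tumor 1. As with Mup6, the call was lost without any 1 of the normal livers, with adjusted p between 0.0941 and 0.109. It was lost with quantile normalization too (log2 -3.84, adjusted p = 0.0541), and with no filter on dim probes both Mup21 (adjusted p = 0.105) and Mup6 (adjusted p = 0.0885) failed to pass.

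Mup20 encodes darcin, the protein of male urine that draws females to a scent mark. Its probe A_55_P2051486 read 857, 782 and 567 in the normal livers and 25.3, 417 and 499 in the tumors. The log2 fold change was -2.06 (SE 1.10, adjusted p = 0.196), or -0.67 (SE 0.21, adjusted p = 0.0725) without liver tumor 1. Its other probe, A_55_P2063654, read 1032, 767 and 776 in the normal livers and 120, 405 and 856 in the tumors. This was the member probe with overlapping groups, since liver tumor 3 lay above 2 of the normal livers. Its log2 fold change was -1.29 (SE 0.66, adjusted p = 0.178), and -0.53 (SE 0.34, adjusted p = 0.297) without liver tumor 1. Neither Mup20 probe was called with liver tumor 1 in or out, although A_55_P2063654 passed without liver tumor 3 (log2 -1.95, adjusted p = 0.0437).

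Over the 9 member probes, all of which passed the filter on dim signals, 3 were called lower and 0 higher. With limma 20.6% of the 24879 probes tested were called lower and 12.5% higher, so the 3 of 9 stood against a high background. An exact two-sided permutation test of 3 against 3 arrays cannot go below p = 0.1, and 8 of the 9 probes reached that value. For the same 8 probes the groups did not overlap, which held in that direction for 33.1% of all tested probes. With liver tumor 1 left out, 7 of 9 were called lower against 14.9% of all tested probes. That array was singled out by the member values, so this share is not a like background for the members. The study's own criteria ask for means at least 2-fold apart, an expression value over 1.0 in one of the groups and p below 0.05 in the methods' paired t-test. No source used here pairs these samples by animal, so the test was run unpaired, by which 7 of the 9 probes met the criteria as lower, against 4.14% of all tested probes. Paired by sample number, as the methods' form of the test would need, 5 of the 9 met them. After Benjamini-Hochberg adjustment the unpaired form called 6 of the 9. No share of all tested probes is given for the paired or the adjusted form, so these counts cannot be set against a background.

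**Figure D2:**
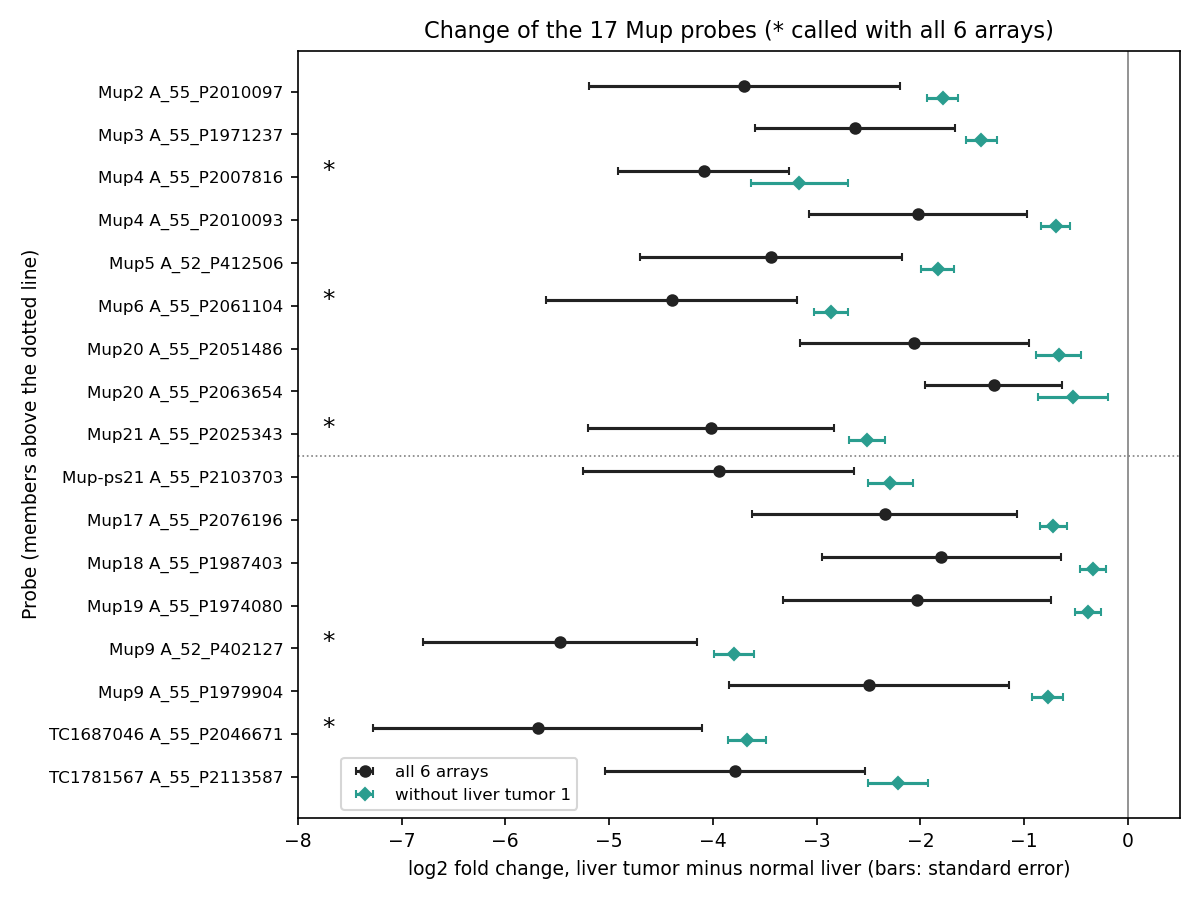
log2 fold change (liver tumor minus normal liver) with its standard error for the 9 member probes and the 8 other Mup probes, with all 6 arrays (black) and without liver tumor 1 (green). All 17 lie below 0, and without liver tumor 1 they move towards 0 and their errors shrink.

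The median log2 fold change of the member probes was -3.44, beside -0.13 for all tested probes, and it was -1.79 without liver tumor 1. On the log2 scale the SD of a member probe was 0.12 to 0.52 over the normal livers and 1.43 to 3.31 over the tumors. Over all tested probes the median SD was 0.17 in the normal livers and 0.18 in the tumors. As a share of the normal mean, the member probes stood at 0.544% to 14.0% in liver tumor 1, 6.77% to 62.3% in liver tumor 2 and 13.9% to 99.7% in liver tumor 3. Scaling the arrays by their spike-in controls instead of the 75th percentile moved the median of all tested probes by more than 0.1, to 0.03, and turned the balance of calls from 5124 lower and 3108 higher to 2044 lower and 3013 higher. Under that scaling 6 of the 9 member probes were called lower, against 8.22% of all tested probes, and the member median was -3.28. That scaling moves every probe alike, so the member median relative to all tested probes, -3.31, is the same under both by construction.

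In the 8 other Mup probes liver tumor 1 was again the lowest array. All 8 had tumors below normal livers without overlap, 2 were called lower, and 6 were called lower without liver tumor 1. Their log2 fold changes ran from -5.69 for the contig TC1687046 (SE 1.59, adjusted p = 0.0355) to -1.80 for Mup18 (SE 1.15, adjusted p = 0.271). The TC1687046 probe read 69.7, 66.6 and 60.5 in the normal livers. It read 0.0773, 4.37 and 6.05 in the tumors and was not well above background in liver tumor 1. The Mup18 probe read 1085, 1045 and 948 in the normal livers and 38.9, 813 and 810 in the tumors. The log2 fold changes of these probes were -3.67 (adjusted p = 0.000374) and -0.34 (adjusted p = 0.106) without liver tumor 1. With normexp, that of TC1687046 was -4.67 (adjusted p = 0.00316). Under the 75th percentile scaling its call was lost without any 1 of the normal livers, with adjusted p up to 0.0925.

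Member probes also differed from each other in how far they stood below normal. Over the 17 Mup probes the change followed probe brightness, with a Spearman rho of 0.72 between normal level and log2 fold change (0.75 without liver tumor 1). Probes above 500 in every normal liver had a median log2 fold change of -2.34, and those below 100 a median of -4.40. The part of brightness in the differences between members was not tested. Within each array, the log2 value of a member gene was set against the mean of the other 6. Mup20 stood 0.68, 0.45 and 0.60 above that mean in the normal livers and 4.16, 1.42 and 2.38 above it in the tumors, a shift of 2.07. Mup6 moved the other way, from -4.91, -4.88 and -5.03 to -6.79, -6.22 and -6.46, a shift of -1.55. So Mup20 stood higher against the other members, and Mup6 lower, in each of the 3 tumors than in any normal liver. Mup4 shifted by 1.22 and Mup3 by 0.51, while Mup21, Mup2 and Mup5 shifted by -1.11, -0.73 and -0.43. The values of Mup4 and Mup20 were those of their brighter probes, A_55_P2010093 and A_55_P2063654. These matched at 45 of 52 aligned bases, so each may read transcripts of the other gene. The Mup20 probe used is the member probe whose groups overlapped. Leaving out liver tumor 1 brought the shift to 1.32 for Mup20, 0.29 for Mup3, -0.14 for Mup2 and -0.20 for Mup5, while it was 1.13 for Mup4, -0.998 for Mup21 and -1.40 for Mup6. The groups were apart for all 7 genes, each with an exact two-sided permutation p of 0.1, the smallest possible, and 0.1 after adjustment over the 7. Each gene was set against the other 6, so the 7 shifts depend on each other and are not 7 separate results. With the mean of both probes of a gene in place of the brighter probe, the shift was 1.86 for Mup20 and -1.31 for Mup6, but 0.25 for Mup4, -0.49 for Mup2 and -0.19 for Mup5, whose groups then overlapped (exact p of 0.8, 0.8 and 0.7).

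The same was seen between the aligned probes printed above, where each pair again set a brighter probe against a dimmer one. The log2 value of Mup3 minus that of Mup6 was 4.57, 4.62 and 4.77 in the normal livers and 7.06, 5.98 and 6.22 in the tumors, so that probes with 85.0% of their bases in common differed by 1.77 in their change. For Mup20 minus Mup-ps21 the differences were 3.92, 4.04 and 3.72 in the normal livers and 6.31, 5.67 and 5.37 in the tumors, a shift of 1.89 between probes that differ at 6 bases. Both pairs were apart without overlap, with an exact permutation p of 0.1 and 0.14 after adjustment over the 7 pairs. The shifts were 1.45 and 1.62 without liver tumor 1. For Mup4 A_55_P2007816 minus Mup5, which overlap by 25 bases, the groups overlapped and the shift was -0.65 (exact p = 0.6).

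**Figure D3:**
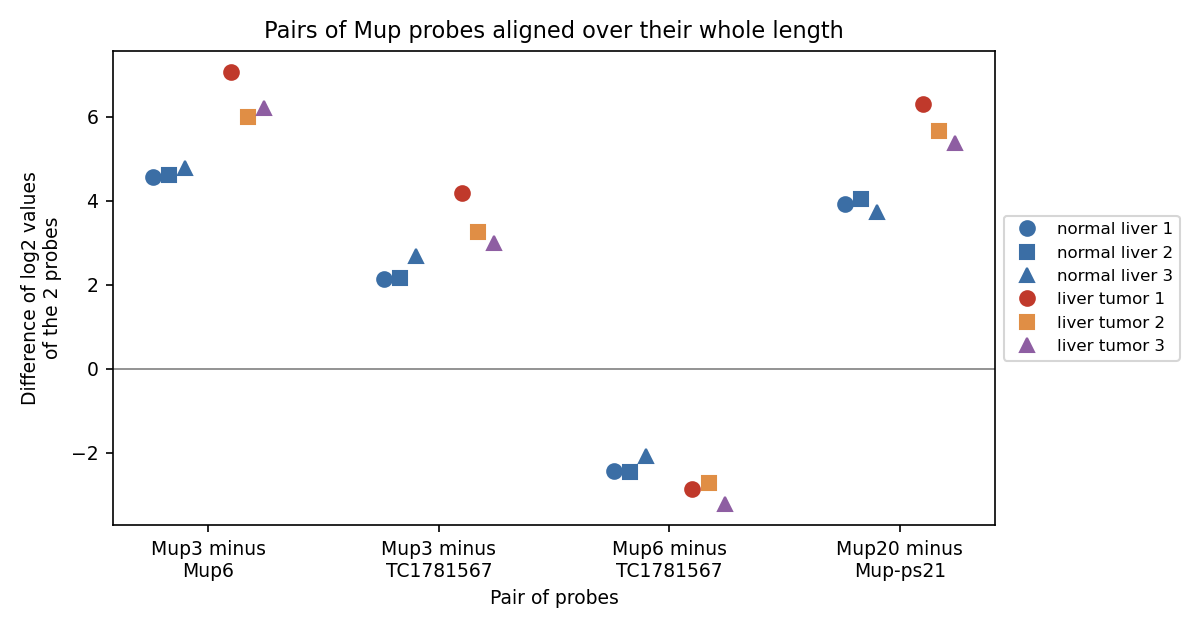
Difference between the log2 values of 2 aligned Mup probes on each array, for the 4 pairs aligned over all 60 bases. In each pair the 3 tumors lie to one side of the 3 normal livers, above them for Mup3 minus Mup6 (5.98 to 7.06 against 4.57 to 4.77) and for Mup20 minus Mup-ps21.

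Promoter sequence was at hand from RefSeq (GRCm38.p6) for 5 of the members: Mup2, Mup3, Mup4, Mup6 and Mup21. The 100 bases before the start site that the RefSeq promoter table uses are shown because all 5 hold the same motif there, with the letters TATATAA, a form of the TATA box that positions the transcription machinery, in capitals.
Mup2 (chr4:60139857-60139956, minus strand): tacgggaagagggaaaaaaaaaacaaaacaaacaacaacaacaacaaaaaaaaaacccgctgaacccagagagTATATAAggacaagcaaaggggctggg
Mup3 (chr4:62087318-62087417, minus strand): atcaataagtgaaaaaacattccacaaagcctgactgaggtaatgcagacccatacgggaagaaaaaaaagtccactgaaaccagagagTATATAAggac
Mup4 (chr4:59960668-59960767, minus strand): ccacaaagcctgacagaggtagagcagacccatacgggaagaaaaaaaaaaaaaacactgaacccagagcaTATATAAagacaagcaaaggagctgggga
Mup6 (chr4:60003381-60003480, plus strand): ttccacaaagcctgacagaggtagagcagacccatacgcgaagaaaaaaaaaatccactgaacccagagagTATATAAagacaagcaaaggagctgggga
Mup21 (chr4:62150842-62150941, minus strand): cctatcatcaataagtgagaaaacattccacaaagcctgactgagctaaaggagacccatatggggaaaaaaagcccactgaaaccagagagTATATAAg
The letters ended 20, 4, 22, 22 and 1 bases before that start site, in the order of the lines, and for Mup2 the site lies inside the annotated gene. Over windows of 250 bases before to 50 after the start, searched on both strands, TATATAA occurred in 5 of 5 member promoters, in 13 of the 14 Mup promoters listed and in 3.24% of 32851 promoters in all. The letters TTCNNNGAA, to which Stat5 proteins bind, occurred in 0 of the 14 Mup windows and in 8.30% of all promoters. The absence of these letters says only that they are not in the windows searched.

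Some of the genes that carry or answer the hormonal inputs to Mup transcription were lower. Of 16 such genes, all tested, 6 were called lower and 0 higher (4 and 1 under spike-in scaling), with a median log2 fold change of -0.29. Over all 13481 genes tested, each by 1 probe, 22.4% were called lower and 14.6% higher. Ghr, the growth hormone receptor, read 109, 135 and 116 in the normal livers and 14.9, 30.4 and 33.3 in the tumors. It fell by 2.27 on the log2 scale (SE 0.31, adjusted p = 0.00368), and by 1.91 without liver tumor 1. Liver tumor 1 was the lowest for Ghr too, by a smaller margin than for any member probe. Stat5b read 17.1, 20.2 and 14.6 in the normal livers and 8.54, 11.2 and 10.4 in the tumors, a fall of 0.78 (SE 0.17, adjusted p = 0.0161). That call was lost without normal liver 2 (log2 -0.66, adjusted p = 0.0544) and under spike-in scaling (log2 -0.62, adjusted p = 0.114).

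Igfals and Igf1, which growth hormone induces in the liver, were among the 6 genes called lower. Igfals, the acid-labile subunit that holds circulating Igf1, read 14.6, 13.2 and 13.9 in the normal livers and 0.505, 2.87 and 3.51 in the tumors (log2 -3.01, SE 0.70, adjusted p = 0.0200). It was -2.13 without liver tumor 1, and the call was lost without any 1 of the normal livers, with adjusted p between 0.0575 and 0.0615. Igf1 itself fell by 1.65 (SE 0.33, adjusted p = 0.0121). Socs2 and Cish, also induced by growth hormone and named here after their values were seen, did not pass (log2 -1.20 and 0.35, adjusted p of 0.213 and 0.838).

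Of 12 transcription factors tested among 14 listed, 3 were called lower and 1 higher, with a median of -0.39. Bcl6, a repressor that competes with Stat5 for its sites and is male-biased in liver, read 9.50, 25.6 and 25.1 in the normal livers and 1.45, 1.64 and 5.08 in the tumors, a fall of 2.99 (SE 0.59, adjusted p = 0.0116). Nr1i3, the nuclear receptor CAR, fell by 2.35 (SE 0.23, adjusted p = 0.00131) and stayed called with each array left out. Cebpb fell by 0.74 (SE 0.22, adjusted p = 0.0422) and Foxa3 rose by 0.91 (SE 0.24, adjusted p = 0.0303). Both calls were lost in several fits with an array left out, Cebpb without any normal liver (adjusted p up to 0.118) or without liver tumor 2 or 3, and Foxa3 without normal liver 1 or 2 (adjusted p up to 0.0768) or liver tumor 1 or 3. Cebpb was not called under spike-in scaling either (adjusted p = 0.0983). Zhx2, which takes part in the control of Mup genes, stayed below the well-above-background mark on each of the 6 arrays and was not tested.

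Other genes with sex-biased expression in mouse liver were set beside the members. Of 16 male-biased genes tested, 6 were called lower and 1 higher, with a median of -2.42, and 13 were called lower without liver tumor 1. That count was 11 without liver tumor 3, 3 without normal liver 2 or 3, and 15 under spike-in scaling. Cyp7b1, an oxysterol hydroxylase, read 292, 265 and 363 in the normal livers and 0.866, 23.4 and 35.2 in the tumors (log2 -5.09, SE 1.33, adjusted p = 0.0292). Susd4, a complement regulator, had a log2 fold change of -4.61 (SE 1.14, adjusted p = 0.0241). Leaving out liver tumor 1 brought these to -3.40 and -3.17, and both calls were lost without any 1 of the normal livers. Nudt7 fell by 2.51 (adjusted p = 0.0170, lost without normal liver 2 or 3 with adjusted p of 0.0525 and 0.0547) and Cyp2d9 fell by 2.20 (adjusted p = 0.00394). The male-biased gene called higher was Serpina12, by 1.49 (adjusted p = 0.000535).

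Of 13 female-biased genes tested, 9 were called higher and 0 lower, with a median of 2.60. With an array left out, 7 or 8 were called higher, and 1 was called lower without liver tumor 3. Under spike-in scaling 9 were called higher. Cyp2b13 did not stand well above background in the 3 normal livers and read 24.6, 10.3 and 10.3 in the tumors, at least 106-fold higher (adjusted p = 0.000172). Prom1 read 0.291, 0.325 and 0.332 in the normal livers and 25.5, 32.9 and 25.8 in the tumors (log2 6.46, SE 0.14, adjusted p = 6.86e-06). Hao2 was at least 5.84-fold higher (adjusted p = 0.000722), and Cyp2b9 rose by 3.56 (SE 0.42, adjusted p = 0.00238). Liver tumor 1 did not stand below the other tumors for Cyp2b13, unlike for the Mup probes. Cyp2b genes resemble each other, so each probe may read more than its own gene.

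**Figure D4:**
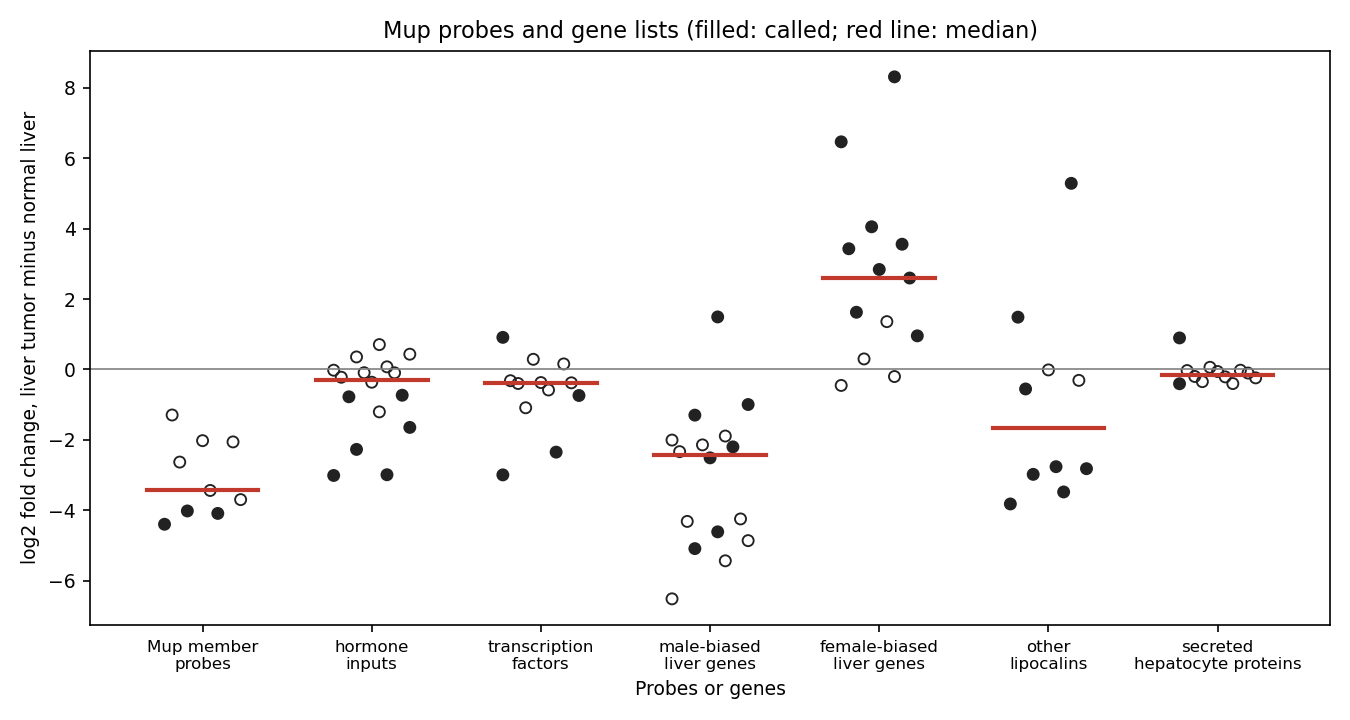
log2 fold change (liver tumor minus normal liver) of the 9 Mup member probes and of each tested gene of 6 lists, with called probes or genes filled and the median of each as a red line. The Mup probes (median -3.44) and the male-biased genes (-2.42) lie mostly below 0, the female-biased genes (2.60) mostly above, and the secreted hepatocyte proteins (-0.15) close to 0.

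Lipocalins outside the Mup cluster changed in both directions. Of 10 tested, 6 were called lower and 2 higher. The larger falls were those of Ptgds, a prostaglandin D synthase (log2 -3.82, SE 0.77, adjusted p = 0.0125), Obp2a (-3.48, SE 0.72, adjusted p = 0.0136, well above background in 1 tumor), Orm3 (-2.98, adjusted p = 0.00520) and Orm2 (-2.82, adjusted p = 0.00453), an acute phase protein. The Orm genes resemble each other, and their probes cannot be told apart with certainty. Lcn2, an iron-carrier binding protein of inflammation, rose by 5.29 (SE 0.44, adjusted p = 0.000684), from 3.80, 3.03 and 1.91 to 201, 66.6 and 97.0, and Apom rose by 1.48 (adjusted p = 0.00409). Rbp4, the plasma carrier of retinol, read 1304, 1198 and 1206 in the normal livers and 1022, 993 and 973 in the tumors and did not pass (log2 -0.31, adjusted p = 0.0561).

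Secreted proteins that hepatocytes make in quantity were a further group. Of 12 tested, 1 was called lower and 1 higher, with a median of -0.15. Alb, serum albumin, read 2447, 2449 and 1923 in the normal livers and 2123, 2221 and 2162 in the tumors, with a log2 fold change of -0.06 (SE 0.13, adjusted p = 0.760). Apoh fell by 0.41 (SE 0.10, adjusted p = 0.0257, and 0.537 under spike-in scaling), a call kept only without normal liver 3. Apoa1 rose by 0.90 (SE 0.14, adjusted p = 0.00564).

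Marker genes of cell types are given beside the Mup values, with sums over probes that bright genes dominate and that measure no cell share. Of 10 hepatocyte markers 5 were called lower and 0 higher, and their summed expression value was 7847 to 8529 in the normal livers and 5849 to 6432 in the tumors. The largest fall among them was that of Cyp2e1 (log2 -2.96, adjusted p = 0.0467). Its call was lost without any 1 of the normal livers and without liver tumor 2. Cps1, Tat, Ass1 and Asgr1 were called lower too (log2 -1.48, -1.43, -1.15 and -0.86). Alb, Ttr, Apob, Hnf4a and Ahsg were not called (log2 -0.06, -0.02, -0.11, 0.16 and -0.20). Asgr1 and the markers not called are named here after their values were seen. Of 7 macrophage markers 5 were lower, with sums of 84.0 to 151 and 44.6 to 75.1. Of 6 endothelial markers 2 were lower, with sums of 104 to 117 and 80.05 to 88.7. Of 7 stellate cell and fibroblast markers 3 were lower and 2 higher, with sums of 85.6 to 103 and 27.7 to 47.8, most of it from Dcn alone (75.8 to 96.4 and 17.8 to 37.7). Under spike-in scaling 3 macrophage and 0 endothelial markers were lower, and 1 endothelial (Lyve1) and 1 lymphocyte (Cd79a) marker were higher. With the 75th percentile none of the 3 cholangiocyte and 3 lymphocyte markers tested was called, with sums of 1.94 to 2.32 and 1.55 to 1.91 for the former and of 10.7 to 12.5 and 10 to 12.3 for the latter, while the other markers of these lists did not pass the filter. The part of the other cell types in the Mup values was not tested.

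The 5 genes whose pattern over the 6 arrays was most like the mean of the Mup members were Car3, Cyp2j5, Cyp2e1, Ces3a and Wfdc21, at Euclidean distances of 0.515 to 0.875 between centred log2 profiles, out of 13464 genes ranked. Car3, a carbonic anhydrase, came closest, with 977, 1004 and 857 in the normal livers and 17.2, 233 and 235 in the tumors. Cyp2e1, an ethanol-metabolising enzyme of the hepatocytes around the central vein, read 1222, 1251 and 1265 in the normal livers and 32.8, 329 and 383 in the tumors. In all 5 genes, which were picked for this likeness, liver tumor 1 was the lowest and the other tumors lay between it and the normal livers. Their log2 fold changes ran from -3.70 to -2.96, and from -2.34 to -1.81 without liver tumor 1.

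**Figure D5:**
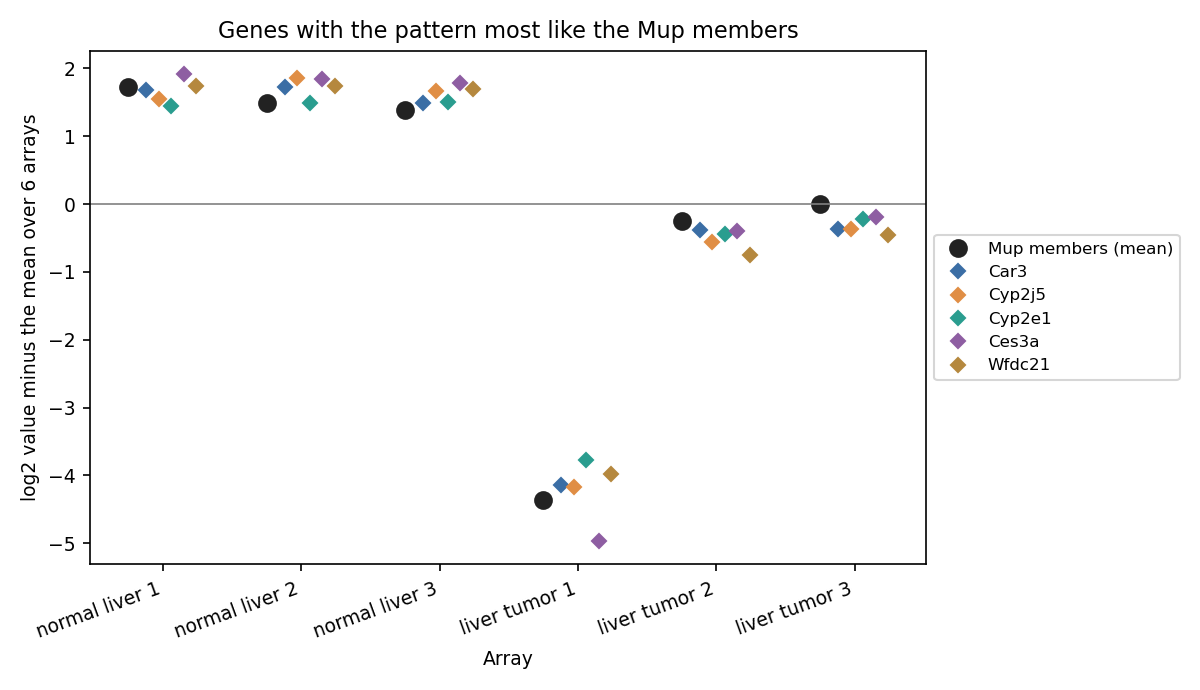
log2 value minus its mean over the 6 arrays for the mean of the 7 Mup member genes and for the 5 genes with the most similar pattern. The normal livers lie together above 0, and liver tumor 1 lies far below the other tumors for the Mup members (-4.35) and for each of the 5 genes.

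The genes beside the Mup cluster on chromosome 4 were examined as well. RefSeq annotates 46 genes within 1 Mb outside the outermost Mup genes, of which 29 had a probe and 23 were tested. Of these 7 were called lower and 2 higher, with a median log2 fold change of -0.17, where 22.4% of all genes tested were lower. The larger changes were in Zfp618 (3.07, SE 0.35, adjusted p = 0.00203), Ptgr1 (2.43, SE 0.12, adjusted p = 0.000122), Shoc1 (-1.41, SE 0.26, adjusted p = 0.00901) and Hsdl2 (-1.09, SE 0.12, adjusted p = 0.00200). No tested neighbour was lower than -1.41, whereas 8 of the 9 member probes were. Without liver tumor 1 Shoc1 stood at -1.58, and 5 of the 9 member probes were lower than that.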

How the data were processed

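RNA of 3 normal livers and 3 liver tumors was labelled with Cy3 and hybridised to SurePrint G3 Mouse GE microarrays, 1 per sample. The authors' intensity values, processed signal with background subtracted and spatial trend removed, came per the file headers from Feature Extraction 10.7.3.1 (12.0.3.1 in the submitters' processing notes). An alternative used the mean and local background intensities of those deposited files. A further table, deposited by the authors, holds the signal as a ratio over each array's upper quartile.

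The processed signal was divided by that 75th percentile and taken to log2, and repeated spots of a probe were then averaged without controls and outliers. Probes counted as tested (24879) where every array of a group, or of both, was well above background. Tumor and normal arrays were compared in limma 3.58.1 (lmFit, eBayes, two-sided, Benjamini-Hochberg, 0.05) under R 4.3.3. Under Python 3.11.15, exact permutation tests ran with numpy 2.4.6, and t-tests and Spearman correlations with scipy 1.17.1. For genes with several probes, the one brightest on average stood for the gene. "At least" marks a fold with one side under background: the dim side was set, on every array, to the dimmest well-measured signal or to the probe's own signal if that was greater.

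RefSeq (GRCm38.p6) named 27235 probes by accession, 3581 by symbol and 565 by synonym, and 24300 kept the design's name. Members and gene lists were chosen with earlier results of these data known. The genes named are the members, the other Mup probes of largest and smallest change, up to 4 called genes per list and direction, Stat5b, Ghr, Zhx2, Alb and Rbp4, up to 4 called neighbours, and the 5 genes of most similar pattern, and some genes under this rule are not reported here. Nothing says that samples are separate animals, so p-values measure the spread between these samples, and their number limits the precision.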

Additional observations from a re-analysis of the deposited data

How the results depend on the processing

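The direction of all 9 member probes was lower under each alternative tried, with log2 fold changes between -5.18 and -0.53, and no member probe was called higher in any. The number called lower, 3 of 9, was 6 under spike-in scaling, 6 with the unpaired t-test after adjustment and 1 with no filter on dim probes. It ran from 1 (without any 1 of the normal livers) to 7 (without liver tumor 1) with an array left out. The share of all tested probes called lower, 20.6%, was 8.22% under spike-in scaling and 4.67% with no filter. It was 22.0% with a trend in eBayes and 17.9% with normexp, and ran from 10.5% to 16.6% with an array left out. The number of other Mup probes called lower, 2 of 8, was 4 with a trend in eBayes, 4 with normexp, 4 under spike-in scaling and 0 with no filter, and ran from 0 to 6 with an array left out. All tested probes called, 8232, were 4674 with no filter and 5057 under spike-in scaling, and ran from 4967 to 7112 with an array left out. The median of the member probes ran from -4.32 (without liver tumor 3) to -1.79 (without liver tumor 1) and was -2.50 with normexp. The cause of these differences was not tested.

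Same-numbered normal and tumor samples deviated from their group means with correlations of 0.069, 0.13 and 0.051, and not every sample correlated best with its own number. Correlations this weak over so few arrays cannot decide whether same-numbered samples came from one mouse. With the number as a replicate block, 7015 probes were called, and Mup21 passed no longer (log2 -4.02, adjusted p = 0.0550). By the methods' paired t-test, run on these numbers, 5 member probes met the criteria, against 7 with the unpaired form. The share of all tested probes is not given for the paired form.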
